A study of Xenopus laevis with 6 samples.

Results

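Accessible chromatin regions listed in Xenopus laevis ectoderm at the start of gastrulation, with no counterpart in the list from late gastrulation, are described here. They are the distinct stage 10 regions on the 18 assembled chromosomes that no stage 12 region overlaps or approaches to within 1 kb. There are 6727 of them among 40211 stage 10 regions on chromosomes, or 16.7%. They are called stage 10-only regions below. The other 33484 stage 10 regions comprise 31237 that overlap a stage 12 region, called persistent, and 2247 that lie within 1 kb of one without overlap. The members were chosen by the positions of the regions in the 2 lists, so what the lists say of them is given as a description with no test. Their spread over chromosomes was tested, since the choice did not use the chromosome. That spread is not wholly free of the choice, because the density of stage 12 regions along a chromosome bears on which regions are members.

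The study compared ectodermal explants, or animal caps, of the frog at 2 stages by ATAC-seq. Explants cut from stage 9 blastulae were grown until stage 12, late in gastrulation, or until stage 10, its onset. Each stage has 3 libraries of 2 explants. The labels give no strain, genotype or treatment, and both groups were explanted at the same stage. The stage 12 explants were therefore longer in culture, and stage and time in culture cannot be told apart. The comparison asks where chromatin is accessible at each stage.

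In ATAC-seq, a transposase cuts DNA that is free of nucleosomes and tags it for sequencing, so reads pile up over promoters, enhancers and other open elements. A listed region is an interval of such reads, and a summit is a local maximum within it. The cap is blastula tissue that can still form several cell types, and it becomes committed to ectodermal fates, epidermal or neural, during gastrulation. In the frog, gastrulation follows soon after the embryo's own genome becomes broadly transcribed. The caps are bulk tissue, so accessibility in fewer cells and lower accessibility in each cell cannot be told apart.

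The stage 12 list held 61049 regions, 55045 of them on chromosomes, and the stage 10 list held 44936, with 40211 on chromosomes. Neither list gives a value for a single library, so no difference below has a spread between replicates to be set against. Read totals per library are unknown. The most frequent local background, called the floor, was 4.701 reads at stage 12 and 2.204 reads at stage 10, a ratio of 2.13. It was shared by 2913 stage 12 regions and 1465 stage 10 regions. In the stage 10 list it was also the lowest. A region counts as absent where it is not in the stage 12 list. Stage 12 reads at the same positions were not analysed here. Positions are 1-based coordinates of xenLae2, the build named in the submitters' processing notes. No genome or gene annotation of that build was used, so the regions are given by position, without sequence or gene.

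Stage 10-only regions were narrow. Their median width was 343 bp (95% interval 335 to 349 bp), against 543 bp (537 to 548 bp) for the other stage 10 regions. The middle 50% of stage 10-only regions ran from 218 to 515 bp, and that of the others from 319 to 821 bp, so the 2 distributions overlap widely. The median of stage 10-only regions was lower on 18 of 18 chromosomes. Within the others, persistent regions had a median of 571 bp. The regions within 1 kb of a stage 12 region without overlap had 236 bp, less than stage 10-only regions. Together stage 10-only regions covered 2636 kb, against 20167 kb for the others. The intervals here cover counting error only, and width is tied to the choice of members, because a wider region has more bases that can meet a stage 12 region.

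They also carried few summits. A single summit was found in 2785 stage 10-only regions, or 41.4% (95% Wilson interval 40.2% to 42.6%), against 20.2% (19.8% to 20.6%) of the others. The share was higher in stage 10-only regions on 18 of 18 chromosomes. Regions with 4 or more summits made up 9.77% of stage 10-only regions and 34.2% of the others. Few summits were not particular to members. Among the 2247 others that were not persistent, 59.8% had a single summit and 4.45% had 4 or more. The density of summits within the regions was nearly the same, at 5.09 per kb in stage 10-only regions and 5.08 per kb in the others. Neighbouring summits of a region were 157 bp apart at the median in stage 10-only regions and 165 bp apart in the others. The mean number of summits was 1.99 in stage 10-only regions and 3.06 in the others, and the means were closer within each class of width up to 1200 bp. Between 301 and 400 bp the means were 1.83 for stage 10-only regions and 1.96 for the others. Over 1200 bp they lay farther apart. There only 49 regions were stage 10-only, and the means were 5.49 for stage 10-only regions and 6.80 for the others.

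**Figure D1:**
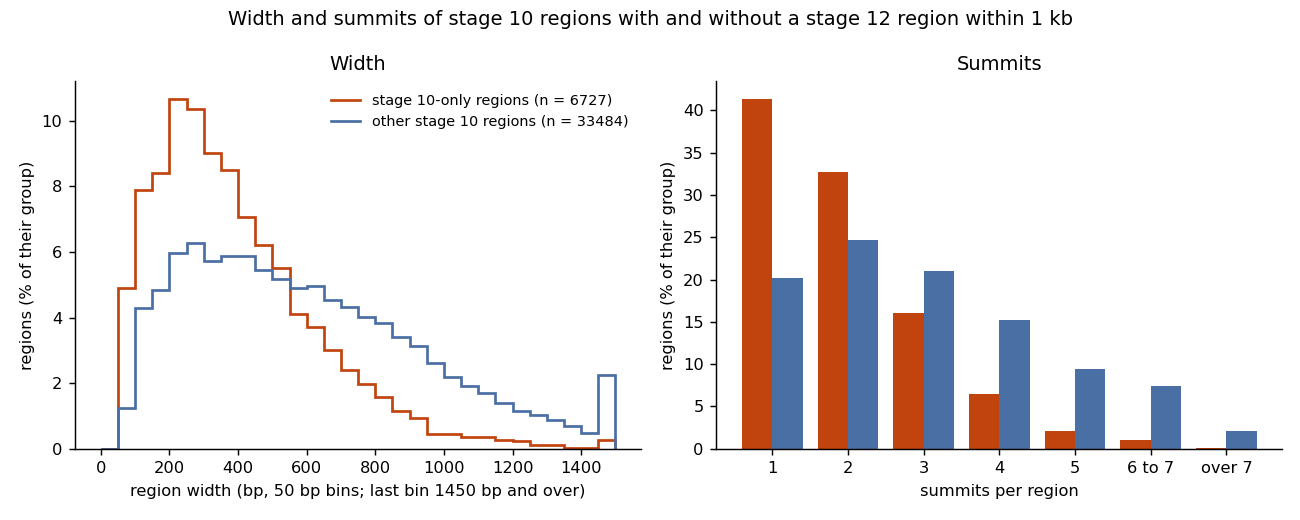
Left, percent of each group's regions by width in bp, in bins of 50 bp. Right, percent of each group by number of summits. Stage 10-only regions have a median of 343 bp and 41.4% have a single summit, against 543 bp and 20.2% for the other stage 10 regions.

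Within the stage 10 list the members ranked low. The −log10 p of a region's best summit, the authors' own value, had a median of 26.4 in stage 10-only regions and 43.7 in the others. Of the stage 10-only regions, 83.6% lay in the lower 50% of the list by this value. The authors' score, which is capped at 1000, reached the cap in 20.1% of stage 10-only regions (19.2% to 21.1%) and in 60.6% of the others (60.1% to 61.1%). Fold enrichment over the local background differed less. Its median was 7.77 in stage 10-only regions and 8.91 in the others. The pileup of reads at the best summit, solved from fold and −log10 p, had a median of 44 reads in stage 10-only regions and 73 in the others. The local background beneath it was 4.64 reads in stage 10-only regions and 7.16 reads in the others. It stood at the floor of the list in 9.63% of stage 10-only regions and in 2.44% of the others. Low rank was not particular to members. The 2247 others that were not persistent had a median −log10 p of 27.0, and 21.7% of them reached the cap. They differed from members in a lower median fold, 5.64, and a higher median pileup, 63 reads.

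The share of regions that were stage 10-only fell steadily with rank. It was 41.7% (40.2% to 43.3%) in the lowest decile of stage 10 regions by −log10 p and 17.1% in the fifth decile. In the highest decile it was 1.02% (0.753% to 1.38%), or 41 regions. By width, it was 29.0% among regions up to 200 bp and 2.23% among those over 1200 bp. Among the regions in the narrowest quartile, 37.9% were stage 10-only in the lowest quartile by −log10 p and 7.77% in the highest. Among those in the widest quartile, these shares were 25.2% and 0.786%.

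Within deciles of −log10 p, members had higher folds than the rest in the lower part of the list and smaller widths in every decile. At a given −log10 p, a higher fold goes with a lower local background and fewer reads. In the lowest decile, the median fold enrichment was 6.78 for stage 10-only regions and 5.89 for the others, and the median width was 297 bp for stage 10-only regions and 321 bp for the others. In the highest decile the folds were 14.5 for stage 10-only regions and 13.8 for the others. The widths there were 474 bp for stage 10-only regions and 843 bp for the others. In decile 8 the order of the folds was the other way, 10.4 for stage 10-only regions and 10.7 for the others.

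**Figure D2:**
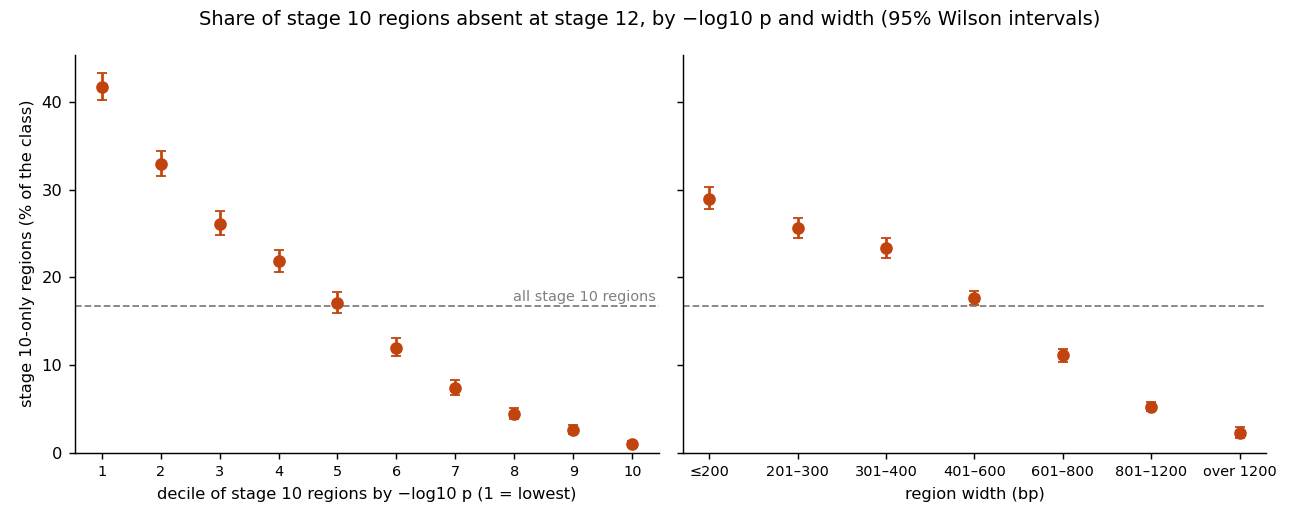
Percent of stage 10 regions that are stage 10-only, with 95% Wilson intervals, in deciles of the list by −log10 p (left) and in classes of width in bp (right). The dashed line is the share in the whole list, 16.7%. The share falls from 41.7% to 1.02% over the deciles and from 29.0% to 2.23% over the widths.

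Pileups can be set against the other list only as multiples of the floor. The median pileup of a stage 10-only region was 19.96 times the stage 10 floor, and that of the other stage 10 regions 33.1 times. In the stage 12 list the median was 31.1 times its own floor and the 5th percentile was 11.9 times. Of the stage 10-only regions, 94.3% stood above this 5th percentile and 16.6% above the stage 12 median. The other stage 10 regions had a 5th percentile of 15.4 times the stage 10 floor. All stage 10 regions together had a 5th percentile of 14.1 times and a median of 30.4 times. Their 5th percentile is above that of stage 12, so their share over the stage 12 value is higher than 94.3%. The 2 lists also differ in their lower ends. The lowest −log10 p of a region was 6.34 in the stage 10 list and 11.1 in the stage 12 list. The part of the authors' filtering in leaving such positions out of the stage 12 list was not tested.

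The members with the highest −log10 p show the upper end of the range. The first, chr8L:96904021-96905109, had 6 summits, a pileup of 740 reads over a background of 22.4 and a −log10 p of 816. It lay 3.03 kb from the nearest stage 12 region. The second, chr3L:143891471-143892293, had 5 summits, a fold of 18.6 and a −log10 p of 471, and lay 4.55 kb from one. The third, chr9_10L:114337706-114338021, had a −log10 p of 240 and lay 74.2 kb from any stage 12 region. Another stage 10-only region stood 345 bp from it.

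The other members in the first 5 were narrow. Region chr4L:34427549-34427637 was only 89 bp wide, with a single summit, and had a fold of 43.7 over a background at the floor. It lay 69.0 kb from the nearest stage 12 region. Region chr4L:6880036-6880233 had a fold of 20.2 and lay 3.82 kb from one. All 5 had the top score of 1000.

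The widest members were 1716 to 1929 bp wide. The first, chr7L:87124141-87126069, had 9 summits with a fold of 7.10. The next, chr3S:57565616-57567489, had 7 summits, a fold of 12.1 and a −log10 p of 62.7. Region chr3S:35343510-35345326 also had 7 summits, with a fold of 5.29. Regions chr6S:25685021-25686749 and chr8S:27458657-27460372 each had 10 summits, the most of any member, with folds of 6.39 and 3.68. Their local backgrounds were 7.64 and 16.3 times the floor, against a median of 2.11 times over all stage 10-only regions. After these and the region on 7L came 4 members with 8 summits each. The ones with the highest −log10 p among the 4 were chr7L:123382448-123383680 and chr5L:118527-119814, with folds of 7.36 and 7.28.

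Most members lay well clear of the 1 kb margin. The median gap to the nearest stage 12 region was 10.3 kb (middle 50% from 4.08 to 28.3 kb). Of the members, 1994 lay at over 1 to 5 kb, 2489 at over 5 to 20 kb, 1808 at over 20 to 100 kb and 436 at over 100 kb. Members farther from stage 12 regions were wider. Their median widths in these 4 classes were 300, 351, 368 and 390 bp. The share with a single summit was 45.8% in the nearest class and 35.1% in the farthest. Median fold enrichment was 6.12, 7.92, 8.46 and 8.97 from nearest to farthest. The median local background was 3.90, 1.98, 1.54 and 1.39 times the floor in the same order. Median pileup also fell, at 26.3, 19.1, 17.2 and 16.8 times the floor, so the higher folds came with fewer reads. By contrast, median −log10 p stayed between 25.4 and 27.3.

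The farthest member was chr4S:37036751-37036926, at 852 kb from any stage 12 region, with a pileup of 23 reads over a background at the floor. The next was chr5L:110416231-110416529, at 776 kb, with a fold of 7.10. The other 3 stood close together on chromosome 3L. They were chr3L:28078349-28078544, chr3L:28079109-28079802 and chr3L:28109392-28109731, with folds of 8.09, 10.5 and 10.3, at 664 to 695 kb from any stage 12 region.

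Regions on either side of the 1 kb margin had similar values. The 464 members at 1001 to 1500 bp had a median width of 268 bp, a median −log10 p of 26.6 and a single summit in 52.2%. The 722 regions at 501 to 1000 bp had 252.5 bp, 27.0 and 56.0%. Just beyond the margin lay chr1L:218753962-218754246, chr8L:55424005-55424537 and chr3L:106659840-106660015, at 1003, 1004 and 1006 bp. Just within it lay chr8L:99285795-99286104, chr2S:150467464-150467985 and chr3L:42392437-42392689, at 1000, 999 and 997 bp. The folds were 5.91, 4.86 and 8.52 beyond the margin, and 6.70, 8.59 and 8.07 within it.

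Stage 10-only regions stood farther from persistent regions than other stage 10 regions did. The median gap to the nearest persistent stage 10 region was 15.9 kb for stage 10-only regions (middle 50% from 6.07 to 46.4 kb) and 6.15 kb for the others (0.353 to 28.4 kb). It was larger for stage 10-only regions on 18 of 18 chromosomes. The nearest other region of any kind at stage 10 was 7.31 kb away for stage 10-only regions and 4.15 kb for the others. The 1 kb margin shapes these gaps, since a region beside a persistent one is often within 1 kb of its stage 12 counterpart and then is no member. With no margin, the medians were 9354.5 bp for stage 10-only regions and 7443 bp for the others. At the top score they were 20892 bp for stage 10-only regions and 16609 bp for the others.

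Around the members, stage 12 regions were fewer and stage 10 regions about as many, and the choice of members itself lowers the stage 12 count. Within 50 kb to either side, a stage 10-only region had a median of 3 stage 12 regions (middle 50% from 1 to 6), against 5 (3 to 8) for the others. The median number of other stage 10 regions in the same space was 3 (1 to 6) for stage 10-only regions and 3 (1 to 6) for the others. No stage 12 region at all lay in this space around 1005 stage 10-only regions, or 14.9%. Of these, 656 had no other stage 10 region there either. The stage 12 region nearest to a member overlapped a stage 10 region in 61.7% of cases (60.6% to 62.9%), against 54.4% (54.0% to 54.8%) of all stage 12 regions. The cases are members, and neighbouring members can share a nearest stage 12 region, which the interval does not allow for. The difference was not tested.

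Members lay beside members more often than other regions did. The nearest other stage 10 region was itself stage 10-only for 2571 stage 10-only regions, or 38.2% (37.1% to 39.4%), and for 10.8% (10.5% to 11.2%) of the others. Over all stage 10 regions the share was 15.4%. Of the 2571, 1338 had that neighbour within 1 kb. The choice of members bears on the difference from the others, since close neighbours have similar distances to stage 12 regions. For neighbours within 1 kb the choice largely sets the class, since a stage 12 region near one is near the other. How much of the whole difference the choice sets was not tested. With no margin, the shares were 35.4% for stage 10-only regions and 18.7% for the others. With the 1 kb margin and the neighbour within 1 kb, the shares were 92.5% for stage 10-only regions and 0.526% for the others. At over 1 to 5 kb they were 28.1% (25.8% to 30.5%) for stage 10-only regions and 18.7% (17.5% to 19.8%) for the others. With the neighbour at over 5 to 20 kb they were 23.0% (21.2% to 24.9%) for stage 10-only regions and 17.3% (16.4% to 18.2%) for the others. At over 20 to 100 kb they were 19.6% (17.7% to 21.7%) for stage 10-only regions and 16.4% (15.6% to 17.3%) for the others. At over 100 kb they were 23.4% (19.7% to 27.6%) for stage 10-only regions and 19.7% (17.8% to 21.7%) for the others. Regions that are each other's nearest neighbour are both counted, which none of these intervals allows for. The differences were not tested.

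**Figure D3:**
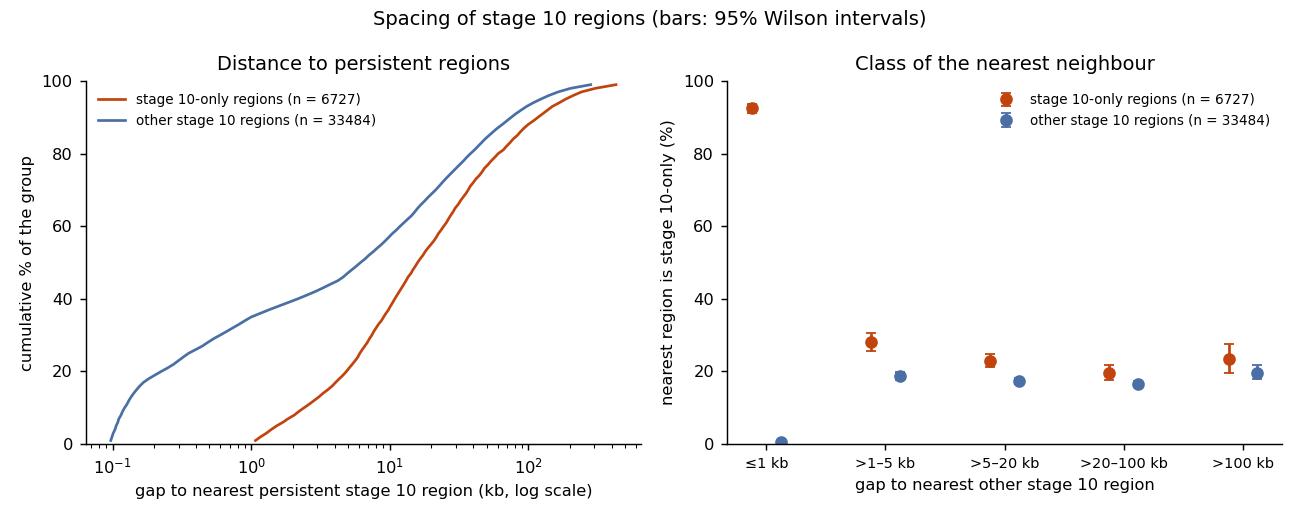
Left, cumulative percent of each group by gap in kb to the nearest persistent stage 10 region, on a log axis. Right, percent of regions whose nearest other stage 10 region is stage 10-only, by the gap to that neighbour, with 95% Wilson intervals. Median gaps are 15.9 kb for stage 10-only regions and 6.15 kb for the others. The shares differ far less once the neighbour is over 1 kb away, and that of stage 10-only regions stays higher in every class.

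The members fell into 4701 runs of consecutive stage 10 regions that were all stage 10-only. A run of 1 region accounted for 3336 members, or 49.6%. Runs of 2 numbered 943, runs of 3 numbered 267 and longer runs 155. Members of runs of 4 or more had a median −log10 p of 28.9 and reached the top score in 28.6%. For members that stood alone, these values were 25.4 and 17.1%. Of the 155 longer runs, 92 held no stage 12 region between their ends.

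The longest run held 8 members within 12.7 kb on chromosome 7S, chr7S:86786190-86798928, with no stage 12 region between them. Its members had folds of 3.97 to 7.19 and 4 of them had the top score. Their local backgrounds were 5.79 to 9.31 times the floor. The nearest stage 12 regions were 7908 to 15049 bp away.

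The other 4 runs named had 7 members each. In the run at chr4S:9882309-9910804, 28.5 kb long, the members were at most 363 bp wide and none had the top score, and 1 stage 12 region lay between them. The run at chr6S:76140806-76273013 held no stage 12 region over 132 kb, and its folds were 5.84 to 9.09. The run at chr1L:211693613-212298557 spanned 605 kb and enclosed 5 stage 12 regions. All but the last of its members lay in chr1L:211693613-211742908, and the last was chr1L:212297901-212298557. The run at chr5L:3937668-4768009 spanned 830 kb without a stage 12 region, and its highest fold was 16.0. Its members lay only at the ends, in chr5L:3937668-4014510 and chr5L:4743666-4768009. Most of the span therefore held no region at either stage. Along 100 kb windows, a division chosen after the values were seen, 60 of 14319 windows with a stage 10 region held 5 or more members. Those 60 windows held 382 stage 12 regions and 634 stage 10 regions, of which 333 were stage 10-only. Over all chromosomes there were 55045 stage 12 regions and 40211 stage 10 regions, of which 16.7% were stage 10-only. The windows were picked for their number of members, so the choice itself raises that share and lowers the stage 12 count.

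**Figure D4:**
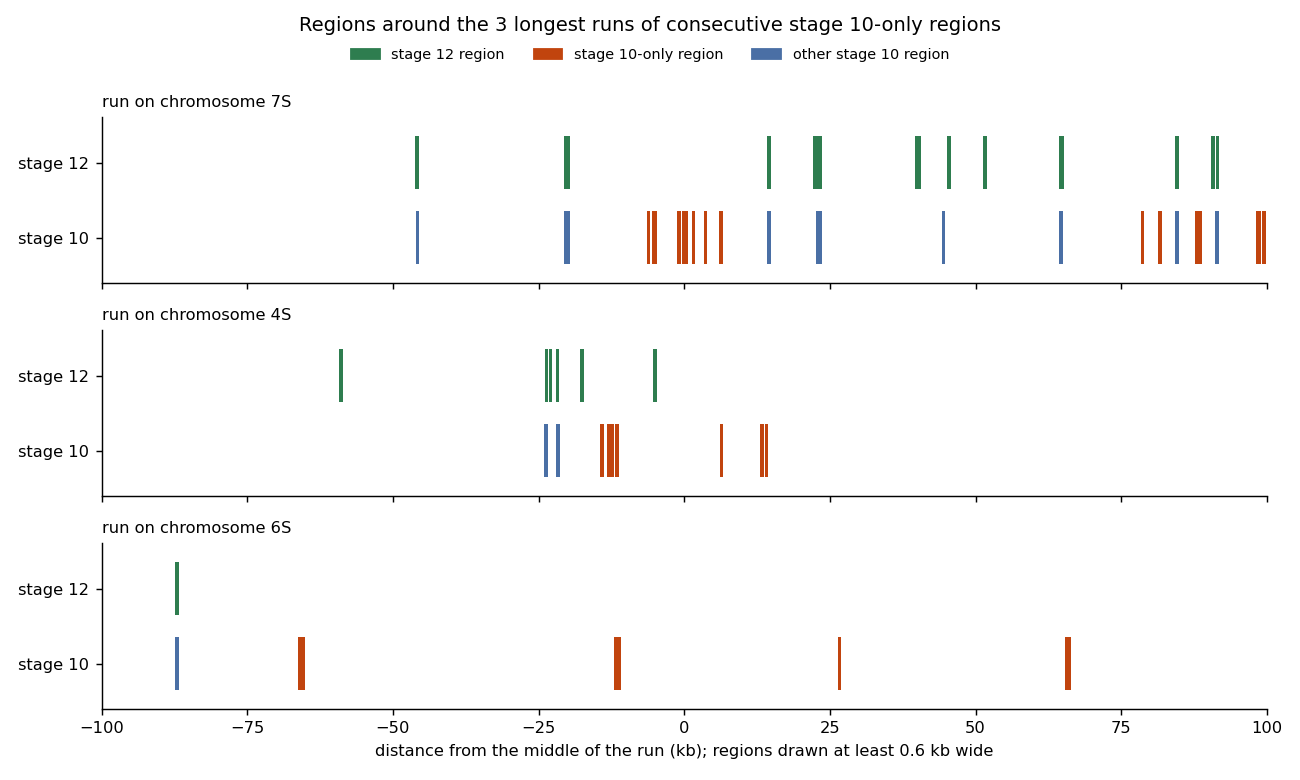
Regions within 100 kb of the middle of the 3 longest runs, on chromosomes 7S, 4S and 6S, with stage 12 above stage 10 in each panel and distance in kb on the x axis. The runs hold 8, 7 and 7 stage 10-only regions. Those on 7S and 6S enclose no stage 12 region, and the one on 4S encloses 1.

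Xenopus laevis arose by hybridisation of 2 ancestral species, and its chromosomes form 9 homeologous pairs of a long (L) and a short (S) member. Stage 10-only regions numbered 3921 on L and 2806 on S chromosomes, or 2.87 and 2.46 per Mb. The density per Mb was higher on L in 7 of 9 pairs. The L density over the S density, as a log2 ratio, averaged 0.21 ± 0.22 (SD, n = 9 pairs). A 2-sided exact permutation test that flips the sign of each pair gave p = 0.0234 and an adjusted p of 0.0469. The other stage 10 regions stood at 14.3 per Mb on L and 12.2 per Mb on S chromosomes. They had a mean log2 ratio of 0.22 ± 0.18 (SD, n = 9 pairs), so a higher density on L was not particular to members. Leaving out a single pair often ended the call. Without pair 1, 2, 3, 4, 5, 8 or 9_10 the adjusted p of the exact test ran from 0.0625 to 0.0938. It was 0.0547 with no margin around stage 12 regions and 0.0625 with a margin of 5 kb.

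Set against the regions present on the same chromosome, L and S did not differ past the threshold. The share of stage 10 regions that were stage 10-only was 16.7% (16.2% to 17.2%) on L and 16.8% (16.2% to 17.3%) on S chromosomes. The mean difference of L minus S was -0.0891 percentage points ± 1.09 (SD, n = 9 pairs), and its 2-sided exact sign-flip permutation test gave p = 0.820 before and after adjustment. L was higher in 5 of 9 pairs, and single pairs ran from -2.36 points in pair 6 to 1.34 points in pair 2. The mean was 0.194 points without pair 6. The units of both tests are chromosome pairs and not embryos, and the Benjamini-Hochberg adjustment covers these 2 tests.

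Single chromosomes ranged from 14.9% on 8L to 18.8% on 7S. The 95% Wilson interval was 13.5% to 16.3% for 8L and 16.9% to 20.9% for 7S. Both chromosomes of pair 3 and of pair 8 were at or below 15.1%, and both of pair 5 and of pair 7 were at or above 18.1%. Within the outermost 5 Mb of the chromosomes the share was 18.3% (17.2% to 19.4%), against 16.5% (16.1% to 16.9%) elsewhere.

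**Figure D5:**
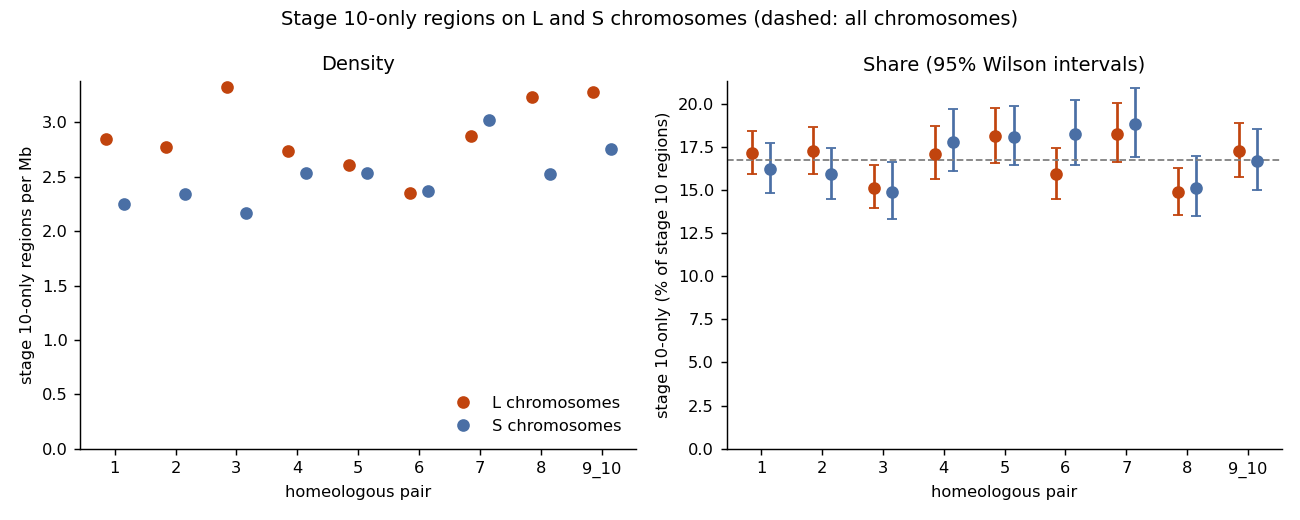
Stage 10-only regions per Mb (left) and as percent of stage 10 regions with 95% Wilson intervals (right), for the L and S chromosome of each of the 9 pairs. The dashed line is 16.7%. Density is higher on L in 7 of 9 pairs, while the share is higher on L in 5 of 9.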

How the data were processed

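The data are 6 ATAC-seq libraries, 3 from stage 12 and 3 from stage 10, read as paired ends of 100 nucleotides, with 1 list of regions per stage. Base calls were converted with bcl2fastq 2.20 and xenLae2 is the build, per the submitters' processing notes. The aligner, peak caller, filters, shift for the Tn5 cut site and pooling of replicates are not given in the sources used here. The lists have no header and follow the column order of the narrowPeak format. The deposited score is a whole number per region, from 540 to 1000. The deposited fold enrichment is a ratio per summit, and the deposited −log10 p belongs to the same summit. The deposited summit offset counts bases from the region start, and the deposited −log10 q was not used. Depth per library is unknown.

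Each row is a summit, and rows sharing an interval formed 1 region, which took the values of its summit of highest −log10 p. Gaps are the bases between 2 regions. Pileup and background were solved from fold, taken as (pileup + 1)/(background + 1), and from −log10 p, taken as a Poisson upper tail. A whole-number pileup met both within 0.01 for 99.99% of stage 10 regions and 99.96% of stage 12 regions. Chromosome length was taken as the end of the last region. Named regions were the 5 members of highest −log10 p, greatest gap, width and summit number, the 5 longest runs, and 3 on either side of the margin. Members, lists and tests were chosen with earlier results of these data known. Scripts used Python 3.11.15, numpy 2.4.6, pandas 2.3.3 and scipy 1.17.1, and were tested on simulated data. Alternatives changed the margin, the regions entered, their merging and the point measured.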

Additional observations from a re-analysis of the deposited data

Results flagged for a closer look

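Unplaced scaffolds were outside every comparison and also held stage 10 regions with no stage 12 region within 1 kb. There were 827 of them among 4725 stage 10 regions on 1730 scaffolds, or 17.5%. The share on chromosomes was 16.7%, close to it. They are given here because no comparison used them. Their number is above the limit of 3 that a count of 0 allows, which says nothing of how they compare with regions on chromosomes. Of the 827, 364 lay on a scaffold with no stage 12 region at all.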

How the results depend on the processing

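No paired analysis was possible because the files hold 1 list per stage, with no replicate numbers, and for the same reason no replicate could be left out. Stage 10-only regions were narrower, more often of a single summit, more often beside one another and farther from persistent regions than the other stage 10 regions under all 6 alternatives. Each alternative still chose members by their position against stage 12 regions. The choice itself bears on width, neighbours and gaps, so the shared direction is no independent support. With no margin, 22.3% of stage 10 regions were absent at stage 12, the median width was 313 bp, 46.0% had 1 summit, 35.4% had a stage 10-only neighbour (18.7% of the others) and the median gap to a persistent region was 9354.5 bp (7443 bp for the others). A margin of 5 kb gave 11.8%, 361 bp, 39.5% and 26685 bp for share, width, single summits and gap. At the top score there were 1352 such regions, with 6.25%, 420.5 bp, 26.3%, 21.7% and 20892 bp in the order of the first alternative, and the others had 5.06% for neighbours and 16609 bp for gap. With an equal number of stage 12 regions the share was 22.9%, the width 350 bp, single summits 39.99% and stage 10-only neighbours 44.6%. Measured from the best summit, the share was 17.2%. The L to S log2 density ratio lost its call with no margin (0.21) and at 5 kb (0.16), and ran from 0.158 to 0.244 as each pair was left out, with 7 of 9 calls lost. The L minus S share changed sign at the top score (0.424) and with equal numbers (0.0977), and ran from -0.268 to 0.194 over the pairs left out. The cause was not tested.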

Other observations

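Some stretches of chromosome held many stage 10-only regions. They were picked from the 100 kb windows after the values were seen and have no test. The stretch chr8L:96700001-97000000 held 14 stage 12 regions and 37 stage 10 regions, of which 20 were stage 10-only, the one with the highest −log10 p of all among them. Of these 20, 12 had the top score. Their median fold was 12.9, against 7.77 over all stage 10-only regions and 21.2 in the 14 persistent stage 10 regions of the same stretch. The median pileup of the 20 was 29.3 times the floor. The 14 persistent stage 10 regions between them had a median pileup of 494 times the floor and a highest of 6716 times. The highest stage 12 pileup there was 1427 times the floor of that list.

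Windows with 5 or more stage 10-only regions occurred on both chromosomes of 8 of the 9 pairs. At 7 or more they did so in 2 pairs, whose windows are given here. There were 60 windows with 5 or more, and how many pairs such a number would reach by itself was not tested. On chromosome 7L, chr7L:122400001-122500000 held 2 stage 12 regions and 10 stage 10 regions, 9 of them stage 10-only. On chromosome 7S, chr7S:86700001-86900000 held 13 stage 12 regions and 24 stage 10 regions, 15 of them stage 10-only. These lay 4.32 Mb and 2.71 Mb from the end of their chromosome. In the last pair, 7 of 15 stage 10 regions were stage 10-only both in chr9_10L:4100001-4200000 and in chr9_10S:3100001-3200000. Median folds of these members were 12.2 on 9_10L and 6.10 on 9_10S. Whether the stretches of a pair hold the same genes was not tested, since no annotation of this build was used.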
